A study of Mus musculus with 14 samples.

Results

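The Polycomb repressive complex subunits described here are 10 genes: Ezh1, Ezh2, Suz12 and Eed of Polycomb repressive complex 2 (PRC2), and Bmi1, Ring1, Rnf2, Cbx2, Cbx7 and Phc1 of Polycomb repressive complex 1 (PRC1). They were chosen by name, through the gene annotation of the array's probe sets, and 10 of 10 were measured among 17149 genes in all. A total of 27 probe sets name 1 of these genes alone, of which 26 had a signal above 20 on at least 1 array. Each gene is represented by its brightest probe set, the one whose log2 signal averaged highest over the 14 arrays, and the others are described after the main results.

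Polycomb proteins keep developmental genes silent through chromatin. PRC2 methylates a lysine in the tail of histone H3, with EZH2 or its relative EZH1 as the enzyme and SUZ12 and EED as the subunits without which the enzyme is inactive. In canonical PRC1 a CBX protein binds that methylated lysine, RING1 or RNF2 (RING1B) attaches ubiquitin to histone H2A, BMI1 (PCGF4) helps this ubiquitin ligase, and PHC proteins join complexes to each other. In many tissues EZH2 is abundant in dividing cells and EZH1 in resting ones. BMI1 is known for sustaining self-renewal, in part by repression of Cdkn2a, and EZH2 is known in the prostate for high levels in advanced cancer.

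RNA of 4 mouse cell populations was hybridized to 14 Affymetrix arrays, in order to find genes active in primitive prostate cells. UGE, the epithelium of the urogenital sinus from which the prostate buds, came from C57BL/6 embryos at day 16 (3 samples). The other populations were sorted by the surface antigen Sca-1 from the proximal ducts of prostates of male C57BL mice (spelled so in the labels, C57BL/6 in the study's methods). The mice were aged 6 to 8 weeks per the labels and 6 weeks per the methods. These populations were Sca-1Hi cells with the brightest staining (3 samples), Sca-1Lo cells with medium to low staining (4 samples) and Sca-1Neg cells with none (4 samples). No population carried a transgene or received a treatment. UGE differs from the 11 adult samples in age, tissue and, by the study's methods, the use of the Sca-1 sort at once, and these cannot be told apart. The labels' protocol instead says that all cells were sorted. The labels do not say whether replicates came from separate animals, so p-values measure the spread between these samples, which may be technical. Each sample is a bulk RNA, in which fewer cells of a type and less RNA per cell cannot be told apart.

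Each value is a PLIER signal, a model-based intensity of a probe set on a linear scale with no unit of its own, and a signal says nothing of one gene's level against another's. The median signal of an array ran between 64.3 and 81.0. Differences are of log2 signals, given with the standard error (SE) from limma, and a gene was called higher or lower where its Benjamini-Hochberg adjusted p was under 0.05 and its change over 0.81 on the log2 scale (the fold minimum). Markers placed the populations as labelled in part: the summed signal of 5 secretory luminal genes was 32.6 to 98.9 in UGE, against 26812 to 64619 in the adult samples, with 5 of 5 at a mean of 20 or less in UGE. The sum of 8 epithelial genes was 41389.6 to 55824 in UGE, 34612 to 40300.6 in Sca-1Hi, 21630.4 to 41660.1 in Sca-1Lo and 6696 to 29708 in Sca-1Neg. Sums of leukocyte (10 genes), smooth muscle and pericyte (7) and endothelial (8) markers were 1518 to 2495, 1369 to 3471 and 299 to 834 in UGE, below the Sca-1Neg sums given with the adult comparisons, and their part in the UGE differences was not tested. Of the 10 leukocyte genes, 1 was called higher in UGE and 2 lower against each of Sca-1Hi and Sca-1Lo (medians 1.52 and -0.66). Of all genes, 13.4% to 15.8% were called higher in these comparisons and 12.0% to 12.2% lower. The sum of 7 fibroblast genes was 6262 to 19164.5 in UGE, 13602 to 55166 in Sca-1Hi, 11254 to 64632 in Sca-1Lo and 16102 to 46167 in Sca-1Neg. Of the 7, Vim was called lower in UGE against each (-2.74, -3.21 and -2.71 against Sca-1Neg, Sca-1Hi and Sca-1Lo), and the other 6 were not called. Pdgfra alone had a difference above 0, against Sca-1Neg (2.12, adjusted p = 0.185) and Sca-1Hi (0.72, adjusted p = 0.71). Against Sca-1Lo Pdgfra was at -0.19. The gene of Sca-1 itself was not analysed here.

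UGE had higher signals of most Polycomb subunits than any adult population, and lower signals of Ezh1, Cbx7 and Ring1. Against Sca-1Neg, 6 of the 10 genes were called higher (Ezh2, Suz12, Bmi1, Rnf2, Cbx2 and Phc1) and 3 lower (Ezh1, Ring1 and Cbx7), where 16.3% of all 17149 genes were called higher and 12.9% lower. Against Sca-1Hi, 6 were called higher and 2 lower, where 15.8% and 12.0% of all genes were. Against Sca-1Lo, 6 were called higher and 2 lower, where 13.4% and 12.2% of all genes were. The 3 comparisons share the UGE arrays. The median difference of the 10 genes was 1.14 against Sca-1Neg, 1.25 against Sca-1Hi and 1.21 against Sca-1Lo, beside 0.07, -0.00015 and -0.04 over all genes. In all 3 comparisons the UGE signals of the 10 genes lay wholly above or wholly below those of the adult population, which 35.9% of all genes did against Sca-1Neg, 52.5% against Sca-1Hi and 41.4% against Sca-1Lo. The plot of signals by array shows this separation for each gene.

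**Figure D1:**
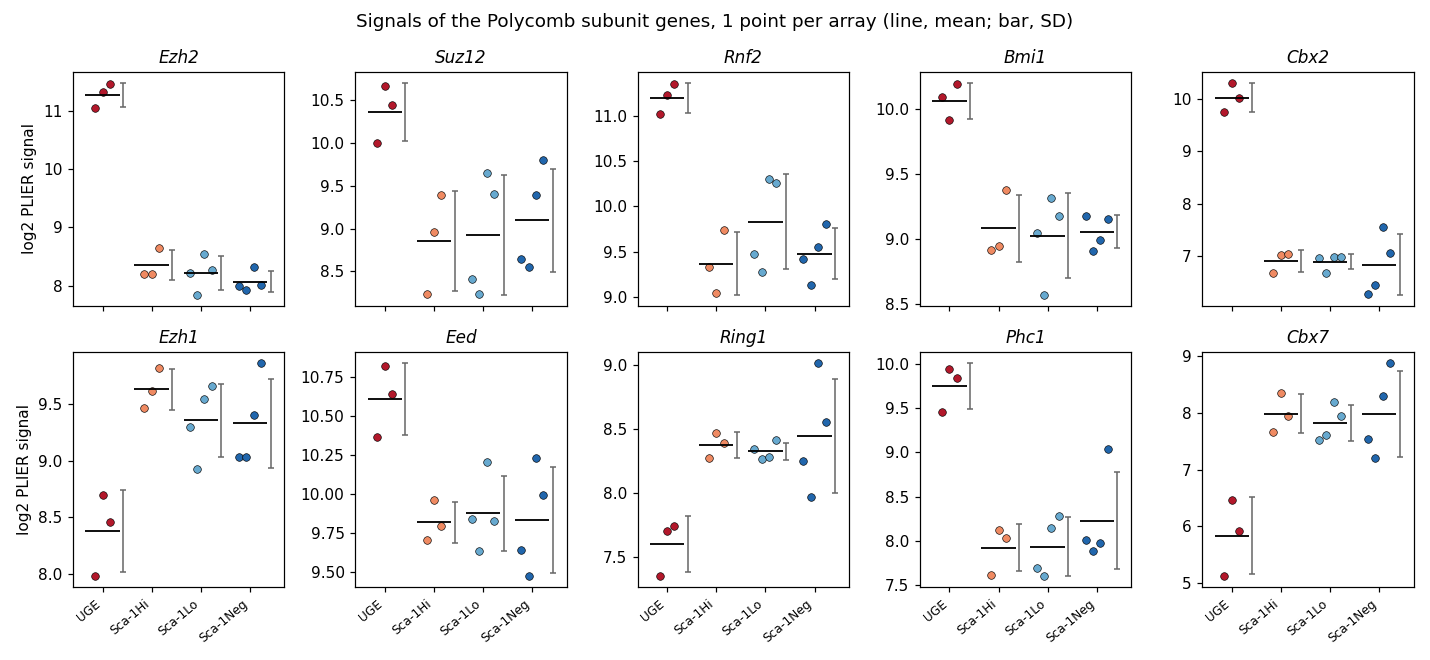
Log2 PLIER signal (vertical axes, each with its own range) of the 10 Polycomb subunit genes on each array of UGE, Sca-1Hi, Sca-1Lo and Sca-1Neg; a point is an array, the line the group mean and the bar beside it the SD. The 3 UGE points lie above all 11 adult points for 7 genes and below them for Ezh1, Ring1 and Cbx7. Shares of all genes that separate in either direction were taken against single populations only: 52.5% against Sca-1Hi, 41.4% against Sca-1Lo and 35.9% against Sca-1Neg.

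Ezh2, the methyltransferase of PRC2, had signals of 2103, 2557 and 2799 in UGE, against 295, 295 and 403 in Sca-1Hi, 298, 228, 375 and 309.8 in Sca-1Lo, and 256, 242, 321 and 259 in Sca-1Neg. The lowest UGE signal thus stood far above the highest of the 11 adult samples, 403. The mean was 2486 ± 353 in UGE and 269.7 ± 35.2 in Sca-1Neg (SD, n = 3 and 4), which is 9.21-fold higher in UGE (log2 difference 3.20 ± 0.24, adjusted p = 9.1e-07 in limma). Ezh2 was 7.54-fold higher than in Sca-1Hi and 8.28-fold higher than in Sca-1Lo (adjusted p = 4.0e-06 and 1.3e-06). It was called in these comparisons under each of 13 alternative settings and without each of the 14 arrays.

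Ezh1, the other methyltransferase of PRC2, went the other way. Its signals were 252, 415 and 351 in UGE, against 705, 782 and 903 in Sca-1Hi, 629, 487, 748 and 808 in Sca-1Lo, and 523, 523, 676 and 931 in Sca-1Neg. UGE was lower throughout, although UGE replicate 2 came near the lowest adult sample. The log2 difference was -0.95 ± 0.28 against Sca-1Neg (1.94-fold lower, adjusted p = 0.0224), -1.25 ± 0.30 against Sca-1Hi (2.38-fold lower, adjusted p = 0.00754) and -0.98 ± 0.28 against Sca-1Lo (1.97-fold lower, adjusted p = 0.0224). The call against Sca-1Neg was lost when UGE replicate 1, UGE replicate 3 or Sca-1Neg replicate 4 was left out (adjusted p = 0.0911, 0.0579 and 0.0505), and that against Sca-1Lo without UGE replicate 1 or 3 or Sca-1Lo replicate 3 or 4.

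Suz12, the zinc finger subunit that holds PRC2 together, had signals of 1022, 1624 and 1392 in UGE. Those of the adult samples were 301, 496 and 671 in Sca-1Hi, 341, 301, 802 and 679 in Sca-1Lo, and 401, 374, 675 and 894 in Sca-1Neg. UGE was higher in each sample, but the adult samples spread 2.97-fold from lowest to highest. The difference was 1.27 ± 0.42 against Sca-1Neg (2.41-fold, adjusted p = 0.0402), 1.51 ± 0.45 against Sca-1Hi (2.85-fold, adjusted p = 0.0253) and 1.44 ± 0.42 against Sca-1Lo (2.72-fold, adjusted p = 0.0254). Leaving out 1 array ended the call against Sca-1Neg in 5 of 14 cases, and against Sca-1Hi and Sca-1Lo in 4 each. The arrays are UGE replicates 2 and 3 in all 3 comparisons (adjusted p up to 0.143), and otherwise Sca-1Neg replicates 1 and 2 and Sca-1Hi replicate 2 (Sca-1Neg), Sca-1Hi replicates 1 and 2 (Sca-1Hi), and Sca-1Lo replicates 1 and 2 (Sca-1Lo).

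Eed, the subunit that binds the methylated lysine and stimulates the enzyme, had signals of 1320.1, 1811 and 1603 in UGE, against 836, 999.6 and 888 in Sca-1Hi, 918, 795, 1184 and 908 in Sca-1Lo, and 799, 713, 1203 and 1022 in Sca-1Neg. It was above every adult sample in UGE but short of the fold minimum. The log2 differences were 0.78 ± 0.24 against Sca-1Neg (1.71-fold, adjusted p = 0.0308), 0.79 ± 0.26 against Sca-1Hi (adjusted p = 0.0392) and 0.73 ± 0.24 against Sca-1Lo (adjusted p = 0.0445).

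The promoters of the PRC2 genes are of interest since Ezh2 and Suz12 were both higher in UGE. RefSeq promoter windows (GRCm38.p6, 250 bases before to 50 after the start site given in that table, read on the transcribed strand) were found for 9 of the 10 genes. The start site is the annotated 5′ end of the gene for 7 of them, but lies 240 bases inside the gene for Ezh2 and 38497 bases inside it for Cbx7. They were searched on both strands for E2F sites (TTTCCCGC, TTTGGCGC, TTTCGCGC, TTTGCCGC), CCAAT boxes (CCAAT) and GC boxes (GGGCGG). The motifs were chosen with the expression values known. An E2F site stood in the windows of Ezh2 and Suz12, against 2.27% of all 32851 windows, and a CCAAT box in those of Ezh2, Suz12, Eed and Cbx7, against 37.4% of all windows. The GC box was found in Rnf2, Bmi1, Suz12, Cbx7 and Ring1, against 35.7% of all windows. The windows of Ezh2 and Suz12 hold 64.3% and 71% G and C, beside a median of 52.7% over all windows. The shares of all windows were not matched for this, so they are no test of enrichment. Below are 30-base stretches with the matched letters in capitals, of the genes that hold an E2F site. Not printed are the CCAAT boxes of Ezh2 on the other strand, 90 and 11 bases before the start site, and the GC boxes of Suz12.
Ezh2, E2F site starting 3 bases after the start site, chr6:47595009-47595038, minus strand: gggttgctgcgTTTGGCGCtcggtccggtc
Ezh2, CCAAT box 64 bases before the start site, chr6:47595076-47595105, minus strand: tctcgcatcctCCAATcggagaggcgcttg
Suz12, E2F site 219 bases before the start site, chr11:79992876-79992905, plus strand: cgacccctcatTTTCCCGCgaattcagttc
Suz12, CCAAT box 61 bases before the start site, chr11:79993034-79993063, plus strand: gctcccgccggCCAATcagagcgccgggcg
The matches describe the letters of these windows and no binding was measured.

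Cbx2 and Cbx7, chromodomain subunits of PRC1 that bind the methylated lysine, moved in opposite directions. Cbx2 had signals of 856, 1268 and 1037 in UGE, against 102, 130.3 and 133 in Sca-1Hi, 125, 103, 126 and 126 in Sca-1Lo, and 77.7, 88.1, 187 and 135 in Sca-1Neg. Cbx7 had signals of 34.9, 88.5 and 60.3 in UGE, against 202, 326 and 248 in Sca-1Hi, 185, 196, 294 and 249 in Sca-1Lo, and 186, 149, 318 and 472 in Sca-1Neg. Neither gene had a UGE sample within the range of the adult samples. Cbx2 was 9.07-fold higher in UGE than in Sca-1Neg (3.18 ± 0.30, adjusted p = 6.2e-06), 8.60-fold higher than in Sca-1Hi and 8.69-fold higher than in Sca-1Lo (adjusted p = 1.4e-05 and 7.1e-06). Cbx7 was 4.44-fold lower in UGE than in Sca-1Neg (-2.15 ± 0.41, adjusted p = 0.00162), 4.44-fold lower than in Sca-1Hi and 3.97-fold lower than in Sca-1Lo (adjusted p = 0.00266 and 0.00309). Its call against Sca-1Neg was lost with the methods' t-test (adjusted p = 0.0698) and with the mean of all its probe sets (-0.72).

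Rnf2 and Ring1 encode the alternative catalytic ubiquitin ligases of PRC1. Rnf2 had signals of 2077, 2412 and 2609 in UGE, against 642, 527 and 854 in Sca-1Hi, 714, 622, 1266 and 1224 in Sca-1Lo, and 684, 561, 753 and 897 in Sca-1Neg. Ring1 had signals of 164, 209 and 215 in UGE, against 309, 354 and 336 in Sca-1Hi, 326, 308, 312 and 341 in Sca-1Lo, and 304, 251, 517 and 376 in Sca-1Neg. Rnf2 was thus higher and Ring1 lower in every UGE sample. Rnf2 was 3.30-fold higher than in Sca-1Neg (1.72 ± 0.30, adjusted p = 8.98e-04), 3.56-fold higher than in Sca-1Hi (adjusted p = 9.93e-04) and 2.59-fold higher than in Sca-1Lo (adjusted p = 0.00482). With the mean of all its probe sets Rnf2 was 0.61, 0.46 and 0.36 higher, and not called against any of the 3. That mean includes dim sets with mean signals of 18.4 and 18.1, at -0.27 and -0.15 in UGE against Sca-1Neg. Ring1 was called only against Sca-1Neg (-0.84 ± 0.25, 1.80-fold lower, adjusted p = 0.0228). Its differences of -0.77 against Sca-1Hi and -0.72 against Sca-1Lo had adjusted p-values of 0.0467 and 0.0513 and were under the fold minimum. The call of Ring1 ended without UGE replicate 1 or 2 or Sca-1Neg replicate 3 (adjusted p = 0.0816, 0.0533 and 0.0404, the last under the fold minimum).

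Bmi1, the Polycomb group ring finger subunit of PRC1, had signals of 1092, 967 and 1169.9 in UGE, against 484, 493 and 667 in Sca-1Hi, 528, 379.5, 638 and 580.3 in Sca-1Lo, and 579, 481, 509 and 571 in Sca-1Neg. Phc1, a polyhomeotic subunit through which complexes polymerize, had signals of 702, 989 and 919.8 in UGE, against 196, 278 and 262 in Sca-1Hi, 208, 195, 284 and 311 in Sca-1Lo, and 258, 237, 251 and 527 in Sca-1Neg. Both were higher in every UGE sample than in any adult one, and 1 Sca-1Neg sample, replicate 4, stood apart from the other Sca-1Neg samples for Phc1. Bmi1 was 2.01-fold higher in UGE than in Sca-1Neg (1.01 ± 0.23, adjusted p = 0.00609), 1.98-fold higher than in Sca-1Hi (adjusted p = 0.0105) and 2.06-fold higher than in Sca-1Lo (adjusted p = 0.00571). With quantile normalization it was 0.73 above Sca-1Neg and 0.76 above Sca-1Hi, under the fold minimum. Phc1 was 2.87-fold higher than in Sca-1Neg (1.52 ± 0.31, adjusted p = 0.00262), 3.55-fold higher than in Sca-1Hi and 3.52-fold higher than in Sca-1Lo (adjusted p = 0.00125 and 8.5e-04).

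**Figure D2:**
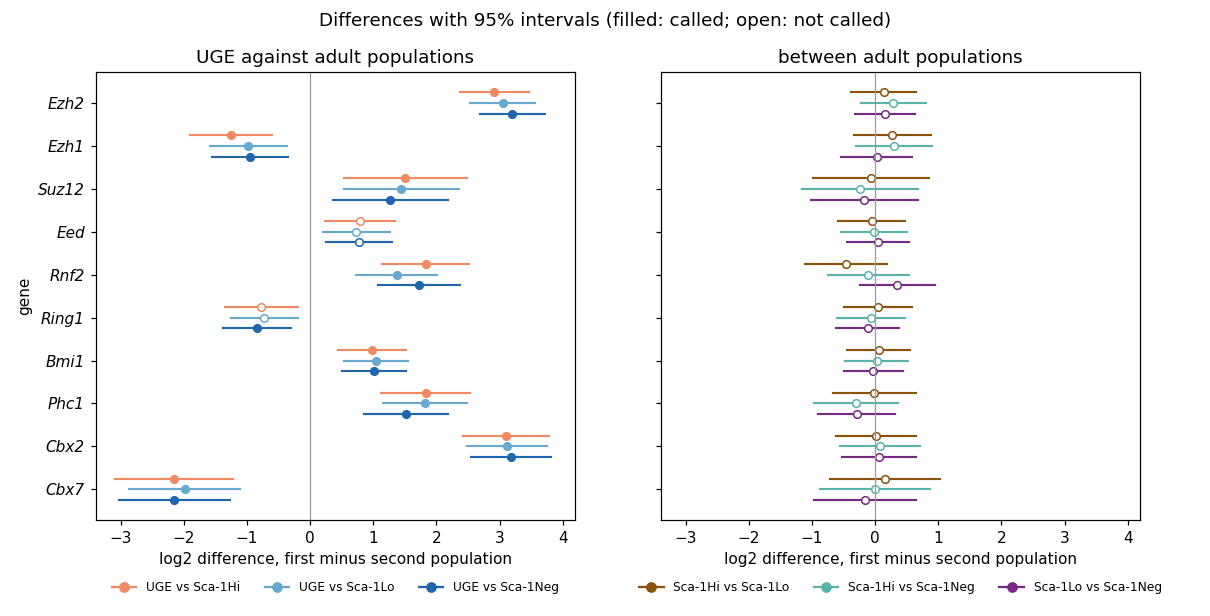
Log2 differences (horizontal axis, first minus second population, with 95% intervals from limma) of the 10 genes, for UGE against each adult population on the left and between adult populations on the right; filled points were called. For Ezh2 and Cbx2 the UGE differences lie between 2.92 and 3.20, and between adult populations each interval of the 10 genes includes 0.

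Related subunits were set against each other on the same array, since a scaling of the whole array cancels in such a ratio. Only its change between populations has a meaning, so each ratio was taken relative to the Sca-1Neg mean. The ratio of Cbx2 over Cbx7 was 31.7 to 54.3 times that mean in the 3 UGE samples, 0.885 to 1.18 times in Sca-1Hi, 0.950 to 1.49 times in Sca-1Lo and 0.631 to 1.31 times in Sca-1Neg. That of Ezh2 over Ezh1 was 14.8 to 20.0 times in UGE, 0.907 to 1.07 times in Sca-1Hi, 0.922 to 1.2 times in Sca-1Lo and 0.669 to 1.18 times in Sca-1Neg. That of Rnf2 over Ring1 was 5.64 to 6.21 times in UGE, 0.728 to 1.24 times in Sca-1Hi, 0.988 to 1.99 times in Sca-1Lo and 0.712 to 1.17 times in Sca-1Neg. The 3 pairs thus changed unequally in UGE, and the adult populations overlapped in each. These ratios restate the differences above and were not tested.

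**Figure D3:**
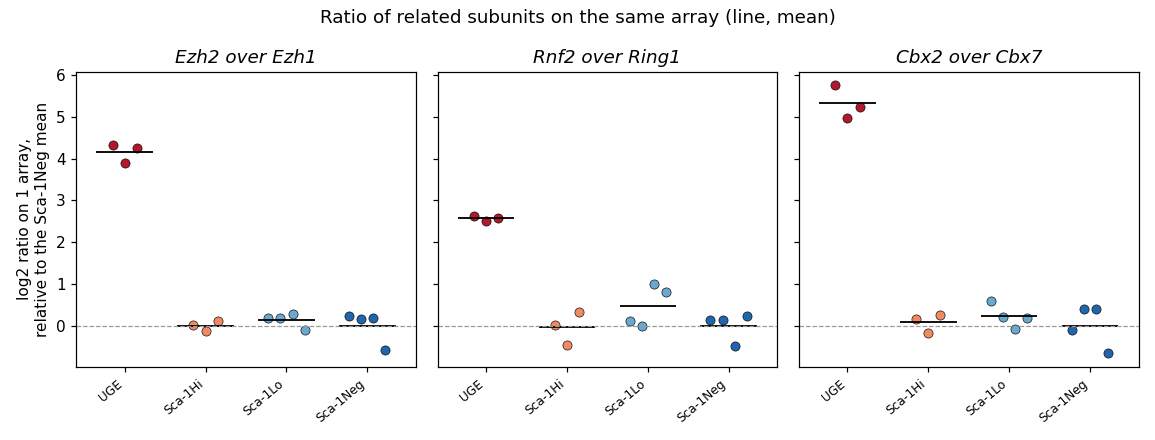
Log2 ratio of the signals of related subunits on each array (vertical axis), relative to the Sca-1Neg mean (dashed line), in UGE, Sca-1Hi, Sca-1Lo and Sca-1Neg; a point is an array and the line the group mean. The UGE means are 4.16 for Ezh2 over Ezh1, 2.57 for Rnf2 over Ring1 and 5.33 for Cbx2 over Cbx7.

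The study compared the sorted adult populations to tell primitive from mature cells. By the probe sets that stand for the 10 genes, these populations did not differ beyond the spread between samples in any gene. A dimmer set of each of Ezh1 and Eed, described below, was called higher in Sca-1Hi than in Sca-1Neg. Among the sets that stand for the genes, 0 of 10 were called in Sca-1Hi against Sca-1Neg, where 6.11% of all genes were called higher and 5.21% lower. In Sca-1Lo against Sca-1Neg 0 of 10 were called, where 1.68% and 0.828% of all genes were, and in Sca-1Hi against Sca-1Lo 0 of 10, where 0.0816% and 0.0175% were. In limma 0 of the 10 genes had an unadjusted p under 0.05 in each of these comparisons, where 26.0% of all genes had one in Sca-1Hi against Sca-1Neg, 14.6% in Sca-1Lo against Sca-1Neg and 8.01% in Sca-1Hi against Sca-1Lo. The groups overlapped for all 10 genes in each, as they did for 78.9%, 93.3% and 87.9% of all genes in the same comparisons. The order of the adult means is therefore not established for any gene. Ezh2, for example, averaged 331 ± 62 in Sca-1Hi, 303 ± 60 in Sca-1Lo and 269.7 ± 35.2 in Sca-1Neg (SD, n = 3, 4 and 4). Bmi1 averaged 548 ± 103 in Sca-1Hi, 531 ± 111 in Sca-1Lo and 535 ± 48 in Sca-1Neg.

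The intervals bound what these samples could hide. For Sca-1Hi minus Sca-1Neg, the 95% interval ran from -0.48 to 0.53 for Bmi1, from -0.22 to 0.80 for Ezh2, and from -1.15 to 0.67 for Suz12, the widest on the low side. Among the probe sets that stand for the genes, the largest difference between adult populations was that of Rnf2 in Sca-1Hi against Sca-1Lo. It was -0.46 with an interval from -1.11 to 0.18 (adjusted p = 0.637). Marker levels moved between these populations: the summed signal of 10 leukocyte genes was 1192 to 2766 in Sca-1Hi, 2424 to 10913 in Sca-1Lo and 6671 to 54609.5 in Sca-1Neg. That of 7 smooth muscle and pericyte genes was 7963 to 23633 in Sca-1Hi, 13042.6 to 25354 in Sca-1Lo and 25915 to 81042 in Sca-1Neg, and that of 8 endothelial genes was 9335 to 17896 in Sca-1Hi, 5448 to 12773 in Sca-1Lo and 1383 to 5661 in Sca-1Neg. Their part in the adult levels of the Polycomb genes was not tested.

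The adult arrays were also compared by a number that the study gives each array in its supplementary column headings, and whose meaning is not stated. The arrays of numbers 3 to 5 (6 samples of all 3 adult populations) were compared with those of numbers 1 and 2 (5 samples), with the population kept in the fit. The difference was above 0 in 10 of 10 genes, where 60.7% of all genes were above 0 and their median was 0.18. Suz12 alone was called, 1 of 10, where 11.3% of all genes were called higher and 5.43% lower, so the count of calls was near that of all genes. Its signals were 496 to 894 at high numbers and 301 to 401 at low ones, without overlap (1.06 ± 0.16, 2.09-fold, adjusted p = 0.00305). Cbx7 ran from 248 to 472 at high numbers and from 149 to 202 at low ones (0.77 ± 0.20, adjusted p = 0.0186, 1.71-fold and so under the fold minimum). Cbx2, not called, was at 126 to 187 at high numbers and 77.7 to 125 at low ones (0.50 ± 0.19, adjusted p = 0.0665). These 3 genes did not overlap, nor did 8.29% of all genes in that direction. The smallest difference was that of Bmi1 (0.24 ± 0.17, adjusted p = 0.319).

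The comparisons with UGE were repeated within each set of adult arrays. Suz12 was 1.77 above Sca-1Neg when only adult arrays of low number were used (adjusted p = 0.00233), and 0.77 above it with those of high number (adjusted p = 0.105). Against Sca-1Lo, the values were 2.05 (adjusted p = 0.00141) and 0.84 (adjusted p = 0.0869), and those of Rnf2 were 1.82 (adjusted p = 0.00153) and 0.92 (adjusted p = 0.0537). With arrays of low number Ezh1 lost its call against all 3 populations (adjusted p = 0.109, 0.0812 and 0.0902 against Sca-1Neg, Sca-1Hi and Sca-1Lo), Ring1 against Sca-1Neg (-0.51, adjusted p = 0.145) and Bmi1 against Sca-1Hi (adjusted p = 0.0514), while Eed gained calls against Sca-1Neg (1.05) and Sca-1Lo (0.87). With arrays of high number Bmi1 lost its call against Sca-1Lo (adjusted p = 0.0516) and Ring1 gained one against Sca-1Hi (-0.83). Ezh2, Cbx2, Cbx7 and Phc1 were called in UGE against each population within both sets. With number as a block in the fit, 9 genes were called against Sca-1Neg, 9 against Sca-1Hi and 8 against Sca-1Lo. The plot of adult arrays by study number shows these sets side by side.

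**Figure D4:**
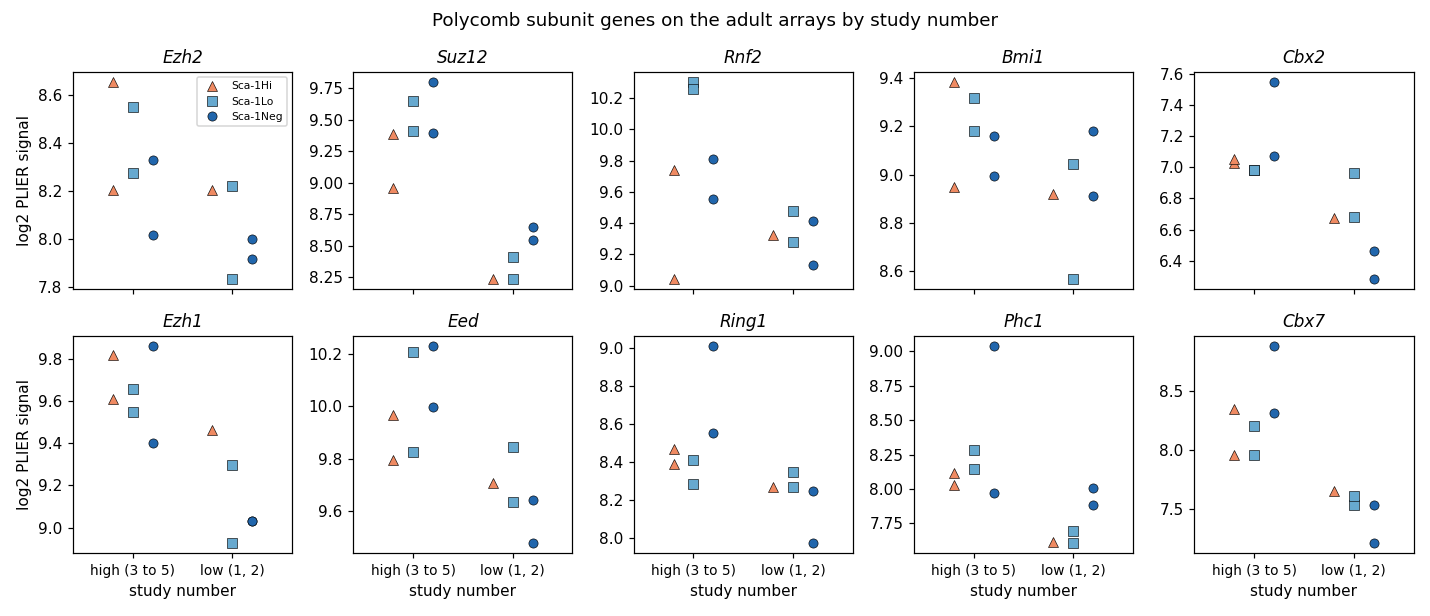
Log2 PLIER signal (vertical axes, each with its own range) of the 10 genes on the 11 adult arrays, by high (3 to 5) or low (1, 2) study number; triangles are Sca-1Hi, squares Sca-1Lo and circles Sca-1Neg. The arrays of high number lie above those of low number without overlap for Suz12, Cbx2 and Cbx7, of which only Suz12 was called; 8.29% of all genes separate in that direction.

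The other 16 probe sets of these genes that passed the signal filter were weaker and gave fewer calls. For Bmi1 and Rnf2, the second probe set (mean signals of 271 and 364 over the arrays) was also called higher in UGE than in Sca-1Neg, by 0.90 ± 0.26 and 1.13 ± 0.22 (adjusted p = 0.0208 and 0.00183), and likewise in both other UGE comparisons. For Suz12, the 2 next brightest probe sets (432 and 195) were 1.18 ± 0.57 and 1.13 ± 0.69 above Sca-1Neg in UGE and not called (adjusted p = 0.145 and 0.247). The set that stands for Suz12 carries the suffix s, by which the maker marks probes shared by several transcripts. The other probe sets of Ezh1, Cbx2 and Cbx7 had mean signals of 22.2 to 75.8 and were not called in UGE against Sca-1Neg, although 1 of Ezh1 (25.9) was called lower against Sca-1Hi and Sca-1Lo (-1.51 and -1.42, adjusted p = 0.0233 and 0.0249). Among them, 1 of Cbx7 was 0.49 lower in UGE and another 0.49 higher (adjusted p = 0.138 and 0.197). Another dim set of Ezh1 and 1 of Eed (40.01 and 26.1) were called higher in Sca-1Hi than in Sca-1Neg, by 1.18 and 0.995 (adjusted p = 0.0238 and 0.0195), where the sets that stand for these genes differed by 0.30 and -0.01. Ezh2, Ring1 and Phc1 have a single probe set. With the mean of all probe sets, Suz12 was not called in UGE against any adult population (0.93, 1.10 and 1.11 against Sca-1Neg, Sca-1Hi and Sca-1Lo), nor Ezh1 against Sca-1Neg (-0.39) and Sca-1Lo (-0.71). With the methods' t-test, Ezh1, Suz12, Ring1 and Phc1 were also not called against Sca-1Neg (adjusted p = 0.101, 0.103, 0.121 and 0.0541).

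**Figure D5:**
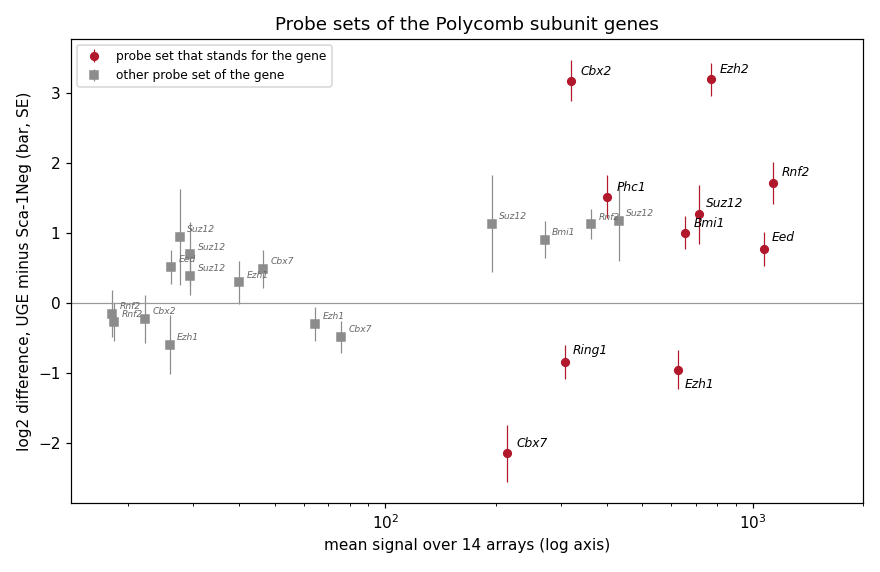
Log2 difference of UGE minus Sca-1Neg (vertical axis, with SE) against the mean signal over the 14 arrays (horizontal axis, log scale) for the 26 probe sets of the 10 genes; circles stand for a gene and squares are its other probe sets. The circles lie at mean signals of 215 or more, and the squares below 100 lie within 1 log2 unit of 0.

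The wider Polycomb machinery was examined through lists written from textbook knowledge. Of 8 other PRC2 subunits, 4 were called higher in UGE than in Sca-1Neg and 1 lower (median difference 0.61, against 0.07 over all genes), and 2 were higher and 1 lower against each of Sca-1Hi and Sca-1Lo. Of all genes, 13.4% to 16.3% were called higher and 12.0% to 12.9% lower in these comparisons. Jarid2, an accessory subunit that targets PRC2, averaged 1451 ± 174 in UGE and 545 ± 130 in Sca-1Neg (1.44 ± 0.23, adjusted p = 5.3e-04). Mtf2, a Polycomb-like accessory subunit, averaged 825 ± 211 in UGE and 336 ± 124 in Sca-1Neg (1.33 ± 0.42, adjusted p = 0.0295). Phf1, another Polycomb-like subunit, was the one called lower, at 39.96 ± 5.67 in UGE and 269 ± 76 in Sca-1Neg (-2.71 ± 0.28, adjusted p = 1.3e-05). Jarid2, Mtf2 and Phf1 were also called against Sca-1Hi and Sca-1Lo, in the same directions. Phf19, also Polycomb-like and named after its values were seen, was not called against any adult population (-0.94 and adjusted p = 0.0703 against Sca-1Neg). Epop, an elongin-binding partner of PRC2, had signals of 17.9 to 32.8 in UGE and 4.46 to 13.6 in Sca-1Neg (adjusted p = 0.00402). It was at least 1.28-fold higher in UGE, as the mean of log2 signals against a floor of 20, and 1 UGE sample was itself under that floor. Epop was not called against Sca-1Hi or Sca-1Lo (adjusted p = 0.0623 and 0.169).

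Of 21 other PRC1 subunits 19 were tested. Over all genes, 16.3% were called higher in UGE than in Sca-1Neg and 12.9% lower. Of the 19 subunits, 5 were called higher and 1 lower (median 0.40). The largest was Pcgf3, a ring finger subunit of a variant PRC1, at 1680.1 ± 381 in UGE and 503 ± 182 in Sca-1Neg (1.78 ± 0.32, adjusted p = 0.00117). Bcor, a corepressor of the variant PRC1 with PCGF1, was 1.46 ± 0.34 higher, and Mga, a DNA-binding subunit of the variant with PCGF6, 1.33 ± 0.36 higher (adjusted p = 0.00598 and 0.0135). The 3 were also called higher against Sca-1Hi and Sca-1Lo. Kdm2b was 1.41 ± 0.25 higher than in Sca-1Neg (adjusted p = 9.0e-04) and 0.97 higher than in Sca-1Lo, and was not called against Sca-1Hi (0.44, adjusted p = 0.24). E2f6, a repressor of the variant with PCGF6, was 1.25 ± 0.25 higher than in Sca-1Neg, 2.22 ± 0.27 higher than in Sca-1Hi and 1.59 ± 0.25 higher than in Sca-1Lo (adjusted p = 0.00221, 5.0e-05 and 4.3e-04). In Sca-1Hi against Sca-1Neg, Kdm2b, which brings variant PRC1 to CpG islands, averaged 1356 ± 44 in Sca-1Hi and 709 ± 169 in Sca-1Neg (0.97 ± 0.25, adjusted p = 0.0217). In the same comparison Bcorl1 was 0.95 higher and E2f6 0.97 lower on the log2 scale (adjusted p = 0.0376 and 0.0229). Thus 2 of the 19 were called higher and 1 lower, where 6.11% and 5.21% of all genes were. In Sca-1Lo against Sca-1Neg 0 of the 19 were called, where 1.68% and 0.828% of all genes were.

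Of 6 enzymes and cofactors that oppose Polycomb marks, 4 were called higher and 0 lower in UGE against each adult population (median 1.24 against Sca-1Neg). In the same comparisons 13.4% to 16.3% of all genes were called higher and 12.0% to 12.9% lower. Asxl1 and Asxl3, partners of the deubiquitinase BAP1, were 1.51 ± 0.36 and 3.10 ± 0.30 higher in UGE than in Sca-1Neg (adjusted p = 0.00752 and 7.6e-06), and Asxl2 0.98 ± 0.23 (adjusted p = 0.0073). Bap1 itself, named after its values were seen, was not called against any adult population. Its differences were 0.69, 0.50 and 0.80 against Sca-1Neg, Sca-1Hi and Sca-1Lo (adjusted p = 0.154, 0.347 and 0.115 in limma). Kdm6a, a histone demethylase that removes the PRC2 mark, averaged 658 ± 193 in UGE and 269.6 ± 94.1 in Sca-1Neg (1.30 ± 0.41, adjusted p = 0.0315), and was not called against Sca-1Hi (0.66, adjusted p = 0.294) or Sca-1Lo (0.88, adjusted p = 0.145). Its relative Kdm6b averaged 1677 ± 361 in UGE, 695 ± 277 in Sca-1Hi, 694 ± 223 in Sca-1Lo and 804 ± 391 in Sca-1Neg. It was called against Sca-1Hi and Sca-1Lo (1.34 and 1.32, adjusted p = 0.04 and 0.0353) and not against Sca-1Neg (1.17, adjusted p = 0.051).

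Of 14 textbook Polycomb targets 11 were tested, of which 5 were called higher in UGE than in Sca-1Neg and 1 lower (median 0.68). The shares of all genes were 16.3% and 12.9%. Against Sca-1Hi 2 were called higher and 1 lower (median 0.29), where 15.8% and 12.0% of all genes were. Against Sca-1Lo 1 was called higher and 1 lower (median 0.50), where 13.4% and 12.2% of all genes were. Cdkn2a, the cell cycle inhibitor locus that BMI1 represses, had a signal of 5.1 to 16.8 over all 14 arrays and so no level above the filter of 20 in any population. Its neighbour Cdkn2b averaged 283 ± 142 in UGE and 47.3 ± 26.3 in Sca-1Neg (2.61 ± 0.50, adjusted p = 0.00176). Hoxd13, a gene of the posterior body, averaged 2602 ± 606 in UGE and 786 ± 353 in Sca-1Neg (1.81 ± 0.61, adjusted p = 0.0407). Wt1, a factor of the urogenital ridge, was at least 8.64-fold higher in UGE, and Gata4 at least 3.22-fold lower, against a floor of 20 that no sample of the lower group reached. Cdkn2b and Gata4 were called in the same direction against each adult population. Wt1 was also called against Sca-1Hi but not against Sca-1Lo, and Hoxd13 was called against neither of these. In Sca-1Hi against Sca-1Neg the homeobox genes Hoxa9 and Hoxd10 were 1.77 ± 0.50 and 1.21 ± 0.30 higher (adjusted p = 0.0366 and 0.0209). Polycomb targets were thus found on either side, and no histone mark was measured.

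Genes of cell division were higher in UGE, as were 6 of the 10 Polycomb genes. Of 16 proliferation genes tested, 16 were called higher in UGE than in each adult population, with a median of 3.14 against Sca-1Neg. Over all genes, 13.4% to 16.3% were called higher in these comparisons. Mki67, which marks cycling cells, averaged 3363 ± 643 in UGE, 219.9 ± 89.1 in Sca-1Hi, 212 ± 66 in Sca-1Lo and 270.2 ± 77 in Sca-1Neg (3.66 ± 0.35 in UGE against Sca-1Neg, adjusted p = 8.3e-06). The summed signal of the 16 genes was 25986 to 31397 in UGE, 3400.3 to 5226 in Sca-1Hi, 4147 to 5483 in Sca-1Lo and 4336 to 4742 in Sca-1Neg. The part of cell division in the Polycomb differences was not tested. RNA quality, as the log2 ratio of 3′ to 5′ signal of Gapdh, was 1.83 to 2.38 in UGE, 3.07 to 3.48 in Sca-1Hi, 1.98 to 3.22 in Sca-1Lo and 1.66 to 2.75 in Sca-1Neg. That of Actb was 1.54 to 2.09 in UGE, 1.59 to 2.77 in Sca-1Hi, 1.72 to 2.27 in Sca-1Lo and 1.17 to 2.11 in Sca-1Neg, so only Gapdh set Sca-1Hi apart from UGE. The Gapdh ratio also moved with study number among adult arrays. In Sca-1Neg it was 1.66 and 1.84 at low numbers and 2.75 and 2.69 at high ones. In Sca-1Lo it was 2.54 and 1.98 at low numbers and 3.10 and 3.22 at high ones. In Sca-1Hi it was 3.08 at the low number and 3.07 and 3.48 at high ones. The Actb ratios of the low and high sets overlapped in Sca-1Neg and Sca-1Lo, and were lower at high numbers in Sca-1Hi. The part of RNA quality was not tested either, in UGE or by study number.

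The genes most like each Polycomb gene were taken by Pearson's r of log2 signals over the 14 arrays. These r values describe likeness only, since the UGE arrays stand apart from the adult ones for many genes. For Ezh2 they were Rad51ap1, Kntc1 and Cit, of DNA repair, the kinetochore and cytokinesis (r = 0.99 each). For Cbx2 they were Tgm1, Pfkl and Unc13c (0.98 to 0.99), and for Rnf2 Zc3hav1l, Pabpc4l and Epha7 (0.98 to 0.99). For Phc1 they were 2610008E11Rik, Ints7 and Smarce1 (0.99 each), for Suz12 Dcp1a, Cdc23 and Pbrm1 (0.98 each), and for Bmi1 Asxl2, Rif1 and Smc4 (0.96 each). The genes that were lower in UGE had other companions. Those of Ezh1 were Egr1, Fzd4 and Arntl (0.96 to 0.97), those of Cbx7 Inpp5k, Ano1 and Clock (0.95 to 0.97), and those of Ring1 Mapk9, Cul9 and Dop1b (0.95 to 0.98). Arntl and Clock encode the partners of the circadian clock's activator. Within the 10 genes, r was 0.98 for Ezh2 with Cbx2, 0.94 for Ezh1 with Cbx7, and -0.83 for Ezh2 with Cbx7.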

How the data were processed

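The authors used ArrayAssist to turn the array scans into PLIER signals, and these linear intensity values were deposited. MAS5 gave detection calls, not used here. The methods do not name the normalization between arrays. Signals were taken to log2 with no constant, control probe sets were removed, and probe sets with no array above a signal of 20 were dropped, which left 41031 of 45101. The platform annotation names 1 gene for 34945 probe sets. Groups came from the sample titles. The 4 group means were fitted together in limma 3.58.1 (R 4.3.3), with adjustment over all 41031 probe sets. Tables and figures used Python 3.11.15, pandas 2.3.3 and matplotlib 3.10.9, and the method was tested on simulated data. The members and lists were chosen with earlier results of these data known. All 10 members are named with every array, list genes by the largest called changes (up to 4 a list and comparison) plus Cdkn2a, Mki67 and Kdm6b, and the 3 most alike genes of each called member. Phf19 and Bap1 were added after their values were seen. Study numbers were joined to arrays by equal values; their direct comparison was not among the planned tests. Precision is limited by 3 or 4 arrays a population. Alternatives tried were other signal filters, 16 added before log2, 2 normalizations, the 2 groups alone, an unpaired t-test, mean probe sets, no fold minimum, replicate or study number blocks, either set of adult arrays, and each array left out. The study's methods name an unpaired t-test too, described after steps that kept variable and significant transcripts. Here it was adjusted over all 41031 probe sets, so it is not the study's own selection.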

Additional observations from a re-analysis of the deposited data

Results flagged for a closer look

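In Sca-1Lo, Cbx2 had a signal of 103 in replicate 2, apart from the 124.9 to 126.4 of the other 3 samples. In Sca-1Neg, Phc1 had a signal of 527 in replicate 4, apart from the 237 to 258 of the others. Chance alone would set apart about 1 in 20 such groups of 4. Phc1 was called higher in UGE than in Sca-1Neg without that sample too.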

How the results depend on the processing

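No member that was called changed direction under any of 13 alternatives or when each of the 14 arrays was left out. Several of these could not change a direction, since they leave the log2 difference as it is. They are the signal filters, the 2 groups alone, the unpaired t-test and no fold minimum. The same holds for leaving out an array of a population that is not compared. The number of members called in UGE was 9 against Sca-1Neg, 8 against Sca-1Hi and 8 against Sca-1Lo. It became 4 against Sca-1Neg with the unpaired t-test, 5 against Sca-1Neg and 5 against Sca-1Lo with the mean of all probe sets of a gene, and 5 against Sca-1Lo with only adult arrays of high study number. Leaving out 1 array gave 7 to 9 against Sca-1Neg, 7 to 9 against Sca-1Hi and 6 to 8 against Sca-1Lo, and 0 to 0 in each comparison between adult populations. With the replicate block (the labels' number in the fit) the counts were 9, 8 and 8 in UGE and 0 between adult populations, and it changed no other call. The labels do not say that a number pairs samples. The deviations of samples with the same number correlated at -0.45 to 0.56 (median 0.13), and those of other pairs at -0.68 to 0.70 (median -0.08). Both ranges include pairs of UGE with adult samples, and the labels' number is not always the study number. Centring on the 75th percentile moved the median of all genes from 0.07 to -0.13 in UGE against Sca-1Neg and the share of higher among called genes from 55.9% to 45.9% (from 52.5% to 42.8% against Sca-1Lo); there Bmi1 lost its call against Sca-1Neg, just under the fold minimum, and Ring1 gained one against Sca-1Hi (-0.91) and Sca-1Lo (-0.90). Over all genes, 2794 were called higher and 2207 lower in UGE than in Sca-1Neg, against 1452 and 873 with the unpaired t-test. In Sca-1Hi against Sca-1Neg the 1047 higher and 893 lower became 136 and 7 with that test, 714 and 460 with only the groups compared, and 489 and 603 with adult arrays of low number. In Sca-1Lo against Sca-1Neg the 288 and 142 became 2 and 0, and 104 and 13, with the same first 2 changes, and 656 and 344 with the study number block. With adult arrays of low number UGE had 4787 and 2876 against Sca-1Neg and 3515 and 2706 against Sca-1Lo (2300 and 2085 with all arrays). The cause of these changes was not tested.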
